A study of Cucumis sativus with 11 samples.

Results

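The comparison described here sets silicon-fed cucumber leaves against untreated control leaves, both from plants that got no added salt. It rests on 5 of the 11 RNA sequencing libraries of the series: 2 silicon libraries (silicon 1 and silicon 2) and 3 control libraries (control 1, control 2 and control 3). The plants were seedlings of the cucumber cultivar JinYou 1 in nutrient solution. Silicon plants had 0.3 mM silicon, given as sodium silicate, for 3 days, and control plants had neither silicon nor sodium chloride. The other groups, used here for the spread between libraries and for levels set beside the comparison, had 0.3 mM silicon together with 75 mM sodium chloride (salt plus silicon, 3 libraries) or 75 mM sodium chloride without silicon (salt, 3 libraries). Each library was made from 3 recently expanded leaves mixed together, so differences between single leaves cannot be read. Sodium silicate brings sodium as well as silicon, and the labels name no matching sodium dose for the control plants, so the effects of these ions cannot be told apart. Of the 20165 genes listed, 16617 had 1 RPKM or more in at least 2 of the 5 libraries and were tested.

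Plants take up silicon from the soil solution as silicic acid, through channels of the aquaporin family and efflux transporters, and it moves to the shoot with the transpiration stream. In leaves it is laid down as silica in and beneath the cell wall. Cucumber is among the dicotyledonous crops that accumulate silicon, and silicon feeding is best known there for raising resistance to fungal disease and tolerance of salt. Which genes of the leaf respond to silicon without any stress is the question this comparison addresses. The deposited tables name genes by ID alone. None of the 20165 IDs (0) was found among the 23999 genes of the RefSeq reference table, in its own form or in locus tag form. Transporters, defence genes or leaf marker genes therefore could not be read, the leaf label could not be checked against markers, and genes are given by ID with no role attached.

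Values are RPKM, in which the authors set each gene's reads against its length and the library's mapped reads. The depth of the libraries in reads is unknown, so no counting interval is given. A gene is said to be called, or to have risen or fallen, where limma's adjusted p for silicon against control was under 0.05. Fold changes are differences of mean log2(RPKM + 1), silicon minus control, with the standard error (SE) of that fit, and they understate the change of genes with low levels. All 11 libraries entered the fit, so the spread of the salt-exposed groups counts in each p. The labels call the libraries biological replicates of mixed leaves and do not say whether they came from separate containers, so p-values measure the spread between these libraries.

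The libraries differed within their groups, which bears on every result below. On the first principal component of the tested genes, which held 34.1% of the variance, silicon 1 lay at 98.7 and silicon 2 at 85.7, while control 1 lay at 41.3, control 2 at -2.12 and control 3 at -24.0. The 6 salt-exposed libraries lay between -42.9 and -18.3. Control 1 thus stood between the silicon libraries and the other controls. The SD over genes of the log2 difference was 0.743 between the silicon libraries and between 0.798 and 0.922 for pairs of controls. It was 0.615 to 0.672 for pairs of salt plus silicon libraries and 0.610 to 0.870 for pairs of salt libraries. The shared spread behind each p thus drew in part on libraries closer together than any pair of controls, which can make p smaller. Silicon 2 and control 1 differed by an SD of 0.838, which is within the range seen among the controls, and the other silicon and control pairs differed by 0.989 to 1.32. For that reason counts are also given without control 1.

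Silicon leaves had a flatter spread of transcript levels than control leaves. The 10 highest genes held 12.1% of the summed RPKM in silicon 1 and 12.03% in silicon 2, against 15.4%, 20.4% and 19.9% in control 1, 2 and 3. The groups did not overlap. The 6 salt-exposed libraries were also flatter than control 2 and 3, with 13.7% to 15.6% in their 10 highest genes. The 100 highest genes held 32.2% ± 1.13 (SD, n = 2) with silicon and 41.9% ± 4.64 (SD, n = 3) in control, beside 32.9% to 37.7% in the salt-exposed libraries, the lowest of which was below silicon 1. At the other end, 9741 and 9988 genes reached 10 RPKM in the silicon libraries, against 9441, 8340 and 8761 in the control libraries, and the median tested gene stood at 13.9 and 14.4 RPKM with silicon, against 12.9, 10.03 and 11.03 RPKM in control. The number of genes at 1 RPKM or more did overlap, at 16054 and 16420 in silicon and 16095, 15241 and 15513 in control libraries. Each of the non-overlapping measures gave an exact permutation p of 0.2 (two-sided), which is the smallest that 10 arrangements of 2 against 3 libraries allow, and 0.233 after adjustment over the 7 measures compared. Without control 1 these measures lay further apart, since control 1 was the control nearest to silicon in each non-overlapping one.

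The gene with the highest level in the silicon libraries, Csa5G609710, was lower in both silicon libraries. It stood at 46020 and 54086 RPKM in silicon 1 and 2, against 79067, 103131 and 102782 RPKM in control 1, 2 and 3. The groups did not overlap. Its log2 fold change of -0.92 ± 0.34 (SE) did not pass the test (limma, adjusted p = 0.114), and it passed in 3 of the 22 alternatives tried. Quantile normalization left a log2 fold change of 0, since it gives the highest gene of each library the same level. The salt-exposed libraries were also below every control, at 43958 to 74832 RPKM. It held 4.21% and 5.08% of the summed RPKM in silicon and 7.08%, 9.31% and 9.67% in control libraries.

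Silicon was followed by more rises than falls. Of the 16617 genes tested, 1710 were called, which is 10.3%, with 1514 higher (9.11%) and 196 lower (1.18%) in silicon leaves. Genes called higher had a median log2 fold change of 1.56 and genes called lower one of -0.93, beside 0.19 over all genes tested. Being called selects for large changes, so these medians are descriptions. Without control 1 the count was 2624, with 2321 higher and 303 lower, and 1623 of the 1710 genes were called again. The balance depended on the scaling: median-of-ratios scaling gave 1103 higher and 413 lower genes and brought the median change of all genes to 0.01, and quantile normalization gave 908 higher and 541 lower genes.

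**Figure D1:**
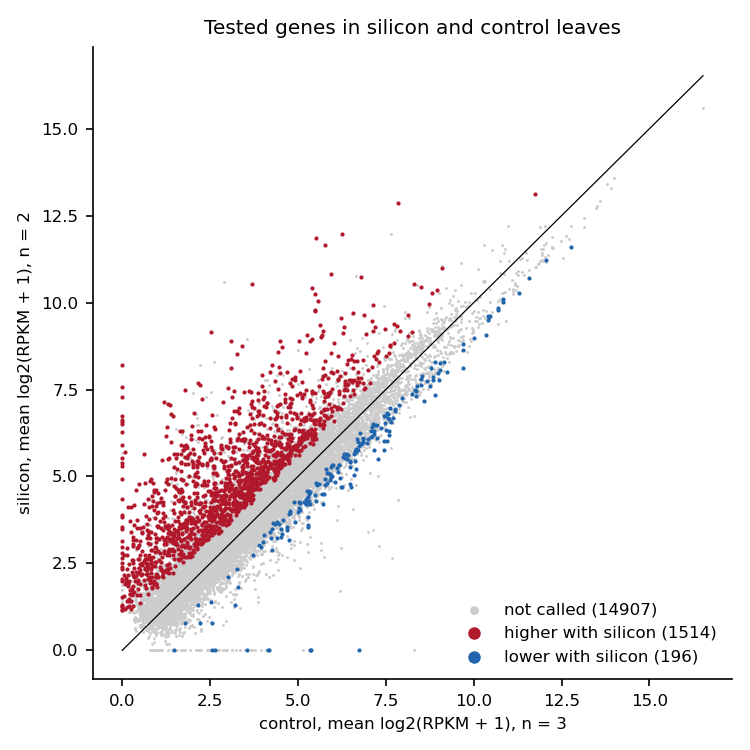
Mean log2(RPKM + 1) of each tested gene in silicon leaves (vertical axis, n = 2) against control leaves (horizontal axis, n = 3), with 1514 genes called higher in red, 196 called lower in blue and the others in grey. The red genes spread far above the line of equal level at low and middle control levels, and the blue genes lie mostly at high control levels.

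Among called genes, rises were also the larger changes in this fit. Of the genes called higher, 302 changed by less than 2-fold on the log2(RPKM + 1) scale, 701 by 2- to 4-fold, 290 by 4- to 8-fold, 145 by 8- to 16-fold and 76 by 16-fold or more. Of the genes called lower, 117 changed by less than 2-fold, 71 by 2- to 4-fold and the rest by 4-fold or more. Of the 1514 higher genes, 193 had a control mean under 1 RPKM, where a fall has little room on this scale. The order of sizes is therefore partly built in. It also moved with scaling: 1212 higher and 79 lower genes changed by 2-fold or more in this fit. Median-of-ratios scaling gave 939 and 250, and quantile normalization 779 and 290.

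Calls of a rise were more frequent among low genes, and calls of a fall among abundant ones. Among the 715 tested genes with a control mean under 1 RPKM, 193 (27.0%) were called higher and 0 lower, but a gene that low entered the test by its silicon level, so this share is partly built in. Between 5 and 20 RPKM in control, 551 of 5891 genes (9.35%) were higher and 19 (0.323%) lower. Between 20 and 100 RPKM the numbers were 318 (7.06%) and 82 (1.82%) of 4502. At 100 RPKM or more, 52 of 1484 genes (3.50%) were higher and 88 (5.93%) lower, and the median log2 fold change of all genes at that level was -0.06, beside 0.22 at 5 to 20 RPKM. The control mean enters both the grouping and the fold change, so noise in the control libraries adds to this slope.

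In 5218 tested genes (31.4%) both silicon libraries were above all 3 controls, and in 2031 (12.2%) both were below. Without control 1 these counts were 7377 (44.4%) and 2580 (15.5%). Leaving out any control can only keep or raise such counts, since fewer controls are easier to clear, so the rise lends no support. Every called gene was among the 5218 or the 2031.

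Across the 1514 genes called higher, the library medians were 29.8 and 26.4 RPKM in silicon 1 and 2, against 10.4, 6.55 and 5.25 RPKM in control 1, 2 and 3. These genes held 15.1% and 11.5% of the summed RPKM with silicon and 4.13%, 2.78% and 2.34% in control. The controls were not level: control 1 was the highest control in 85.9% of the higher genes, beside 51.5% of all genes tested, and silicon 1 exceeded silicon 2 in 72.9% of them, beside 46.8% of all. In the plants with salt, whose means did not enter the choice of these genes, their medians were 8.79 to 9.06 RPKM in salt plus silicon libraries and 8.48 to 10.5 RPKM in salt libraries. Those salt-exposed medians lay within the range of the controls or just above it, and their ranges with and without silicon overlapped. The control values did enter the choice, so noise in the controls affects where the salt-exposed medians stand beside them.

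The 196 genes called lower had library medians of 34.7 and 45.4 RPKM with silicon and 80.5, 86.8 and 78.9 RPKM in control. They held 2.35% and 2.97% of the summed RPKM in silicon libraries and 4.53%, 5.58% and 5.26% in control libraries. In plants with salt their medians were 52.5 to 55.7 RPKM with silicon and 45.9 to 50.0 RPKM without it. All salt-exposed medians of these genes were therefore under those of the controls, with or without silicon. The genes were chosen for control values that were high beside silicon, so noise in the controls favours this order.

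**Figure D2:**
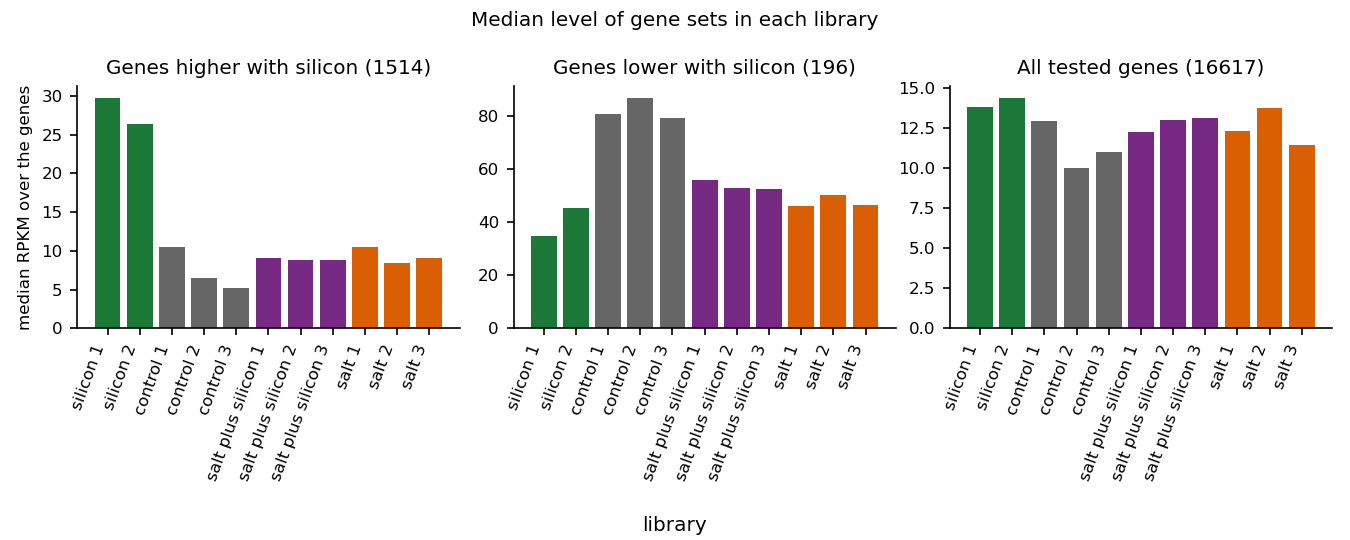
Median RPKM in each of the 11 libraries over the genes called higher with silicon (left), called lower (middle) and all genes tested (right). The bars of silicon 1 and 2 stand at 29.8 and 26.4 RPKM on the left, above the other 9 libraries, and control 1 is the highest control there at 10.4 RPKM.

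A smaller group of genes also passed when the 5 silicon and control libraries were fitted without the salt-exposed ones. That fit called 102 genes (0.614%), 93 higher and 9 lower, and 93 genes were called in both fits. Of these, 86 were higher, with log2 fold changes between 1.82 and 8.21 and a median of 3.40, and 7 were lower. Their library medians were 40.9 and 34.9 RPKM in silicon libraries, against 2.49, 0.971 and 0.731 RPKM in control libraries for the 86 higher genes. At least 1 of the 5 libraries was at 0 in 34 of the higher and in all 7 of the lower genes, and in those 7 both silicon libraries were listed at 0.

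Csa6G363020 had the largest rise among genes that were called in both fits, changed by 2-fold or more, did not overlap between the groups and were above 0 in the 5 libraries. It stood at 104 and 188 RPKM in silicon 1 and 2, against 4.36, 0.694 and 0.306 RPKM in control 1, 2 and 3. It was nearly silent with salt, at 0.107 RPKM in salt plus silicon 1 and listed at 0 in the other salt plus silicon libraries, and at 0.602, 0.234 and 0.284 RPKM in salt libraries. The means were 146 ± 58.8 RPKM (SD, n = 2) with silicon and 1.79 ± 2.24 RPKM (SD, n = 3) in control, which is 5.95 ± 0.52 (SE) higher on the log2 scale (limma, adjusted p = 0.000433). In the fit of the 5 libraries alone adjusted p was 0.0319. Silicon without salt was thus the one group of 4 in which this gene exceeded 5 RPKM.

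Csa4G335240 was the next by the same rule. It stood at 104 and 38.4 RPKM in silicon 1 and 2, against 3.22, 1.40 and 0.786 RPKM in control 1, 2 and 3. The log2 fold change was 4.61 ± 0.54 (SE; limma, adjusted p = 0.00179), and adjusted p was 0.0366 with the 5 libraries alone. In salt-exposed leaves it stood at 0.582, 1.05 and 2.17 RPKM in salt plus silicon libraries and at 0.934, 0.435 and 2.35 RPKM in salt libraries, each below the highest control. Both genes were called under each of the 22 alternatives tried, but the rule that named them required the call in the 5-library fit, no library at 0 and a large rise, so that tally is partly fixed by their choice.

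No gene that fell met the same conditions. Without the condition on the 5-library fit 70 genes did, and the top 2 of them are given here, chosen after values were seen. Csa1G586900 stood at 2.53 and 0.704 RPKM in silicon 1 and 2, against 6.98, 8.97 and 8.63 RPKM in control 1, 2 and 3. On the log2 scale it fell by 1.90 ± 0.34 (SE), with a limma adjusted p of 0.0112. Csa6G512910 stood at 18.9 and 33.4 RPKM in silicon 1 and 2, against 85.2, 85.6 and 97.9 RPKM in control 1, 2 and 3. Its log2 fold change was -1.79 ± 0.32 (SE), and adjusted p by limma was 0.0106. With the 5 libraries alone adjusted p was 0.0757 for Csa1G586900 and 0.0601 for Csa6G512910. The first call was also lost without silicon 2 and the second without silicon 1. Csa1G586900 was at 4.15, 5.94 and 2.90 RPKM in salt plus silicon libraries and at 3.09, 2.02 and 2.68 RPKM in salt libraries. Csa6G512910 was at 60.3, 45.9 and 42.8 RPKM in salt plus silicon libraries and at 24.0, 47.2 and 43.3 RPKM in salt libraries. Both were lower in each salt-exposed library than in any control, but their choice by high control values favours that order.

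**Figure D3:**
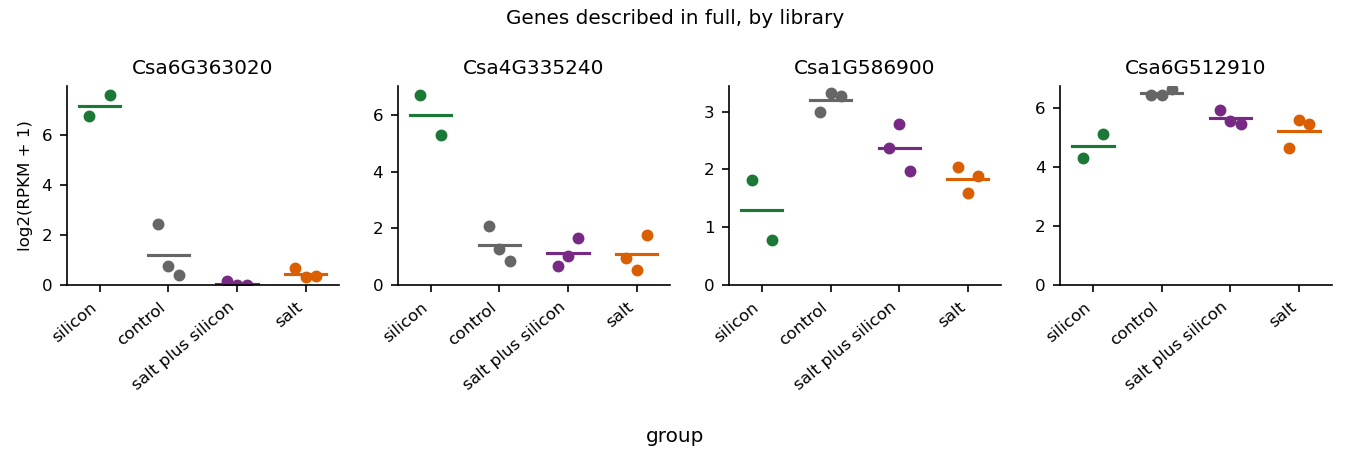
Level of 4 genes as log2(RPKM + 1) (vertical axes, which differ between panels) in each library of the 4 groups, with a line at the group mean. Csa6G363020 and Csa4G335240 stand at 38.4 RPKM or more in silicon libraries and under 5 RPKM in all others, while Csa1G586900 and Csa6G512910 are highest in control libraries.

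A set of genes was listed only in silicon leaves. At 1 RPKM or more in both silicon libraries and at 0 in the 3 controls were 43 genes, and 28 of the 43 were above 0 in at least 1 salt-exposed library. The other 15 were at 0 in the 9 libraries of the other groups. Their silicon values ran from 1.11 to 115 RPKM, with a median gene mean of 14.3 RPKM. In the same way, the count of genes at 1 RPKM or more in each library of a group and at 0 elsewhere was 2 for salt plus silicon (Csa1G050120 and Csa6G358140), 1 for salt (Csa6G116670) and 0 for control. Silicon has 2 libraries and the other groups 3, so its condition asked for fewer libraries at 1 RPKM or more but for more at 0. The counts are therefore not on equal terms. Genes picked for this pattern must differ between silicon and control, so they are described by their values, with no test. A value of exactly 0 may come from an estimate that failed, so no fold is given for these genes.

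In the opposite direction, 11 genes were at 0 in both silicon libraries and at 1 RPKM or more in each control, again a pattern given with no test. In 5 of the 11 the other 6 libraries were at 1 RPKM or more as well, so that silicon alone was the group without a value. Csa3G651690 was listed at 0 in both silicon libraries, against 55.5, 20.9 and 57.4 RPKM in control libraries. Csa3G115070 was listed at 0 with silicon, against 15.5, 12.9 and 22.6 RPKM in control, and Csa5G598740 was at 0 against 14.9, 10.7 and 7.73 RPKM. Csa4G296210 was at 0 with silicon, against 8.14, 3.53 and 4.80 RPKM in control, and Csa1G589680 at 0 against 1.73, 1.87 and 1.68 RPKM. The rule named genes at 0 in silicon or control only where 5 or fewer met it, but 11 and 43 did. The narrower pattern over all libraries, which left these 5 genes, was added after their values had been seen.

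Genes that rose lay next to each other more often than the overall share of rises. The digit after Csa in an ID names the chromosome and the number gives the order along it, by the naming convention of the cucumber genome, and no coordinates were used. Among 13881 pairs of neighbouring IDs with both genes tested, both were higher in 202, and a neighbour of a higher gene was itself higher in 16.0% of cases, beside 9.11% of all genes tested. For genes that fell the share was 1.22%, beside 1.18%, with 2 pairs. The excess for rises was also seen without control 1 (22.5% beside 14.0%), without control 2 (7.26% beside 3.56%), without control 3 (10.7% beside 4.60%), after median-of-ratios scaling (14.4% beside 6.64%), after quantile normalization (13.4% beside 5.46%), without silicon 1 (7.57% beside 1.19%, 12 pairs) and without silicon 2 (9.72% beside 4.41%, 58 pairs). With the 5 libraries alone only 2 pairs were left. The fits share most of their libraries, so the repeated excess is not separate support. These shares are descriptions, with no test, and each share set beside is over all genes tested, not only those in the pairs. How the authors' counting treated reads that match several similar genes is not given in the sources used here, so values of neighbouring near-copies may share reads. By chromosome, the share of tested genes called higher ran from 7.87% on chromosome 1 to 10.2% on chromosome 4.

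The longest run of neighbouring IDs that were all higher held 7 genes, Csa4G000820 to Csa4G000880, and the next held 6, Csa4G285740 to Csa4G285790, both on chromosome 4. They were picked for their rises, so the values are descriptions of what the fit called. Csa4G000860 reached 8323 and 1903 RPKM in silicon 1 and 2, against 315, 105 and 12.5 RPKM in control 1, 2 and 3. The log2 difference was 5.70 ± 1.14 (SE), at a limma adjusted p of 0.0158. By level it ranked 7 among all listed genes in silicon 1 and 61 in silicon 2, against 514, 1341 and 7752 in the controls. Its neighbours Csa4G000820 and Csa4G000850 averaged 953 and 772 RPKM with silicon and 70.1 and 14.2 RPKM in control. Csa4G000870 had the lowest adjusted p of the run (limma, 0.00285), with a log2 fold change of 2.95 ± 0.38 (SE). It stood at 268 and 203 RPKM with silicon against 52.4, 19.5 and 24.5 RPKM in control. The smallest change of the run was that of Csa4G000880, at 1.15 ± 0.26 (SE) on the log2 scale.

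In the second run, Csa4G285740 stood at 4514 and 2303 RPKM in silicon 1 and 2, against 312, 43.5 and 10.7 RPKM in control 1, 2 and 3 (log2 fold change 5.88 ± 1.14, SE, limma adjusted p = 0.0139). Csa4G285750 stood at 248 and 89.6 RPKM with silicon, against 8.16, 4.14 and 1.40 RPKM in control (4.96 ± 0.65, adjusted p = 0.00299). Csa4G285780 stood at 2441 and 1363 RPKM with silicon, against 251, 49.4 and 17.7 RPKM in control (4.88 ± 0.87, adjusted p = 0.0110). Control 1 was the highest and control 3 the lowest control in each of the 6 genes. Silicon 1 was above silicon 2 in the 6 genes of this run and in 6 of the 7 genes of the first.

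Summed over the run, the first held 1.04% and 0.293% of the total RPKM in silicon 1 and 2 and 0.0536%, 0.0191% and 0.00693% in control 1, 2 and 3. The second held 0.916% and 0.499% with silicon and 0.0861%, 0.0233% and 0.0127% in control. In the 6 salt-exposed libraries the sums were between 0.00774% and 0.0323% for the first run and between 0.0313% and 0.0736% for the second, inside the range of the controls. None of the 13 genes was called with the 5 libraries alone, where adjusted p ran from 0.0508 to 0.142. Without silicon 1, 2 of 7 and 1 of 6 were called, and without silicon 2, 4 of 7 and 5 of 6. Without control 1 all 13 were called, without control 2, 3 of 7 and 3 of 6, and without control 3, 4 of 7 and 4 of 6.

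**Figure D4:**
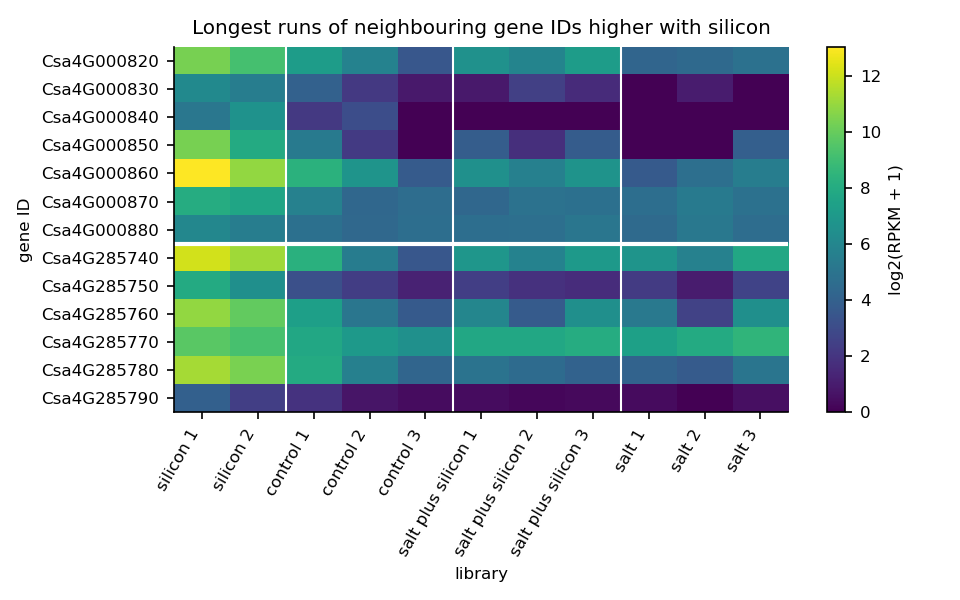
Level as log2(RPKM + 1) of the 7 genes of the first run (above the white line) and the 6 of the second (below it) in the 11 libraries. The silicon columns are the brightest in each row, and control 1 is brighter than control 3 in each row, as in Csa4G000860 at 315 against 12.5 RPKM.

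Whether silicon acted differently in plants without and with salt was tested in the same fit, as the silicon effect without salt minus that with salt. It passed in 388 genes (2.33%), positive in 352 and negative in 36, and 346 of the 388 were among the genes called higher with silicon. The silicon minus control difference is part of this term, so that overlap is partly built in.

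The 95% interval of the log2 fold change stayed inside 2-fold, up or down, on the log2(RPKM + 1) scale in 7098 tested genes (42.7%). Of these, 11 were called higher and 7 called lower. In genes with low levels that scale understates change, so the interval does not bound their RPKM to 2-fold. Many other genes were neither called nor bounded in this way, and could not be placed on either side. The median half-width of the 95% interval over all tested genes was 0.64 on the log2 scale.

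The count of called genes rested on single libraries. It was 204 without silicon 1 (197 higher and 7 lower) and 964 without silicon 2 (733 and 231), and 615 without control 2 (591 and 24) and 830 without control 3 (764 and 66), beside 1710 with all. Of the 1710 genes, 159 were called in the same direction in each of the 5 fits that left out a silicon or control library, 156 of them higher, with a median log2 fold change of 2.70 in those. The others were the 3 lower genes Csa3G651690, Csa3G115070 and Csa4G370550. Csa4G370550 stood at 1.05 and 0.449 RPKM in silicon 1 and 2, against 6.76, 3.98 and 4.18 RPKM in control 1, 2 and 3. At least 1 of the 5 libraries was at 0 in 44 of the 159 genes. Among all calls that held for 136 of the 1514 higher and 9 of the 196 lower genes. Only 59 of the 159 were also called with the 5 libraries alone.

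**Figure D5:**
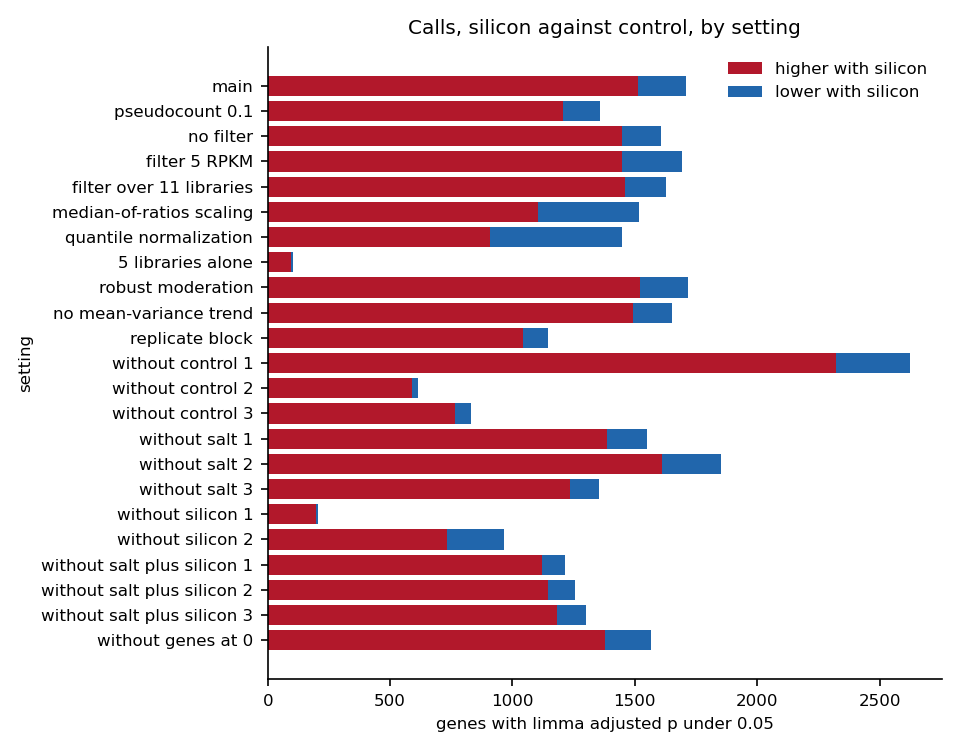
Number of genes called higher (red) and lower (blue) in silicon against control leaves (horizontal axis) under the fit reported here (top) and each alternative. Counts fall to 102 with the 5 libraries alone and to 204 without silicon 1, and reach 2624 without control 1.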

How the data were processed

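RNA of cucumber leaves was sequenced in 11 libraries. The libraries were prepared from polyadenylated RNA and keep no strand, per the labels' protocols, so overlapping genes on opposite strands are not told apart. The authors deposited 1 RPKM value per gene and library. Per the submitters' processing notes, TopHat2 was used. Its version is not given in the sources used here, and neither are counter, build and annotation. A gene was kept if 2 or more of the 5 silicon and control libraries reached 1 RPKM, and kept genes were fitted as log2(RPKM + 1) by group means over all 11 libraries with limma 3.58.1 in R 4.3.3 (mean-variance trend, no block, 7 residual degrees of freedom), with two-sided tests. The p-values of the 16617 genes were adjusted by the Benjamini-Hochberg method, with calls at 0.05. Descriptions used Python 3.11.15, pandas 2.3.3, numpy 2.4.6 and scipy 1.17.1, and plots matplotlib 3.10.9. The fit was tested on simulated data with 200 changed genes. No pair of libraries of a group shared an identical value above 0. Alternatives were pseudocount, filter, scaling, moderation, a replicate block, the 5 libraries alone and leaving out each library.

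Groups, tests and the rule for named genes were written with earlier results of these data known. Of genes called in both the fit of 11 and the fit of 5 libraries, 2-fold or more, without overlap and with no library at 0, the rule took the 2 with the largest rise and the 2 with the largest fall, and also the gene with the highest silicon mean. It left no gene that fell, so its condition on the second fit was dropped for falls after values were seen. The rule also took genes at 0 throughout silicon or control and at 1 RPKM or more throughout the other, where 5 or fewer. More than 5 met that, so the genes at 0 in silicon alone were named instead, again after values were seen. Runs of neighbouring IDs were added in the same way. Gene lists by product name could not be applied, since no ID could be paired with a name.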

Additional observations from a re-analysis of the deposited data

Results flagged for a closer look

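The effect of silicon differed between plants without and with salt, by the interaction term of the fit, in 388 of 16617 genes (limma, adjusted p under 0.05). Among the genes described above, the silicon effect without salt minus that with salt was 6.35 ± 0.70 (SE) on the log2 scale for Csa6G363020 (limma adjusted p = 0.00421), whose salt-exposed libraries were all under 1 RPKM. It was 4.57 ± 0.72 for Csa4G335240 (adjusted p = 0.0173). It was -2.44 ± 0.46 for Csa1G586900 (adjusted p = 0.0310) and -2.20 ± 0.43 for Csa6G512910 (adjusted p = 0.0336). For genes listed at 0 in silicon alone the fitted term was -3.15 for Csa3G115070, -5.59 for Csa3G651690 and -3.36 for Csa4G296210. It was -3.55 for Csa5G598740 and -0.92 for Csa1G589680. Those genes were picked for 0 in both silicon libraries and 1 RPKM or more in all others, salt-exposed libraries included. The term measures the pattern they were picked for, so no test is given for them. In the genes listed at 0 the size of the fitted value follows from the pseudocount. The genes not listed at 0 were picked by the silicon minus control difference, which the term contains, so its sign is partly built in. Groups of 2 and 3 libraries were too small for a search for single outlying libraries.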

How the results depend on the processing

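The 1710 calls for silicon against control became 102 with the 5 libraries alone, and between 204 (without silicon 1) and 2624 (without control 1) with 1 library left out; leaving out a salt-exposed library gave between 1213 and 1854. With a smaller pseudocount of 0.1, other filters, scalings, moderation or a replicate block the count stayed within 1.5 times, and it was 1565 without genes listed at 0 in any of the 5 libraries. The interaction count of 388 became 156 with the smaller pseudocount and 199 with a replicate block, and lay between 54 (without salt plus silicon 1) and 1277 (without control 1) with 1 library left out. Other libraries whose absence moved it by more than 1.5 times were silicon 1 (55), control 2 (85), control 3 (188), salt plus silicon 2 (124), salt plus silicon 3 (104), salt 1 (101) and salt 3 (157). The cause of these differences was not tested. With the replicate block 1144 genes were called for silicon against control. Replicate numbers were not taken to pair the libraries. Deviations from the group means of silicon and control libraries with the same number correlated at 0.121 for number 1 and at -0.0672 for number 2. With 2 silicon libraries, the deviations of one are those of the other with the sign turned, and only 2 numbers are shared. These values therefore cannot show whether the libraries were paired. No named value changed sign under any alternative, but that of Csa5G609710 was 0 after quantile normalization. The named genes did not overlap between silicon and control libraries. Leaving out a library or changing the pseudocount therefore could not reverse them, and the constant sign is largely fixed in advance. Absolute depth is unknown, so what read depth limits cannot be stated.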
